A study of Mus musculus with 14 samples.

Results

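Marrow dendritic cells were compared with marrow monocytes, using the 6 columns of these cells in the table of baseline myeloid cells, out of 14 libraries in the series: 3 of dendritic cells and 3 of monocytes. Bulk RNA sequencing was done on populations sorted by flow cytometry from bone marrow of Cx3cr1 gfp/+ mice, in which 1 copy of Cx3cr1, a chemokine receptor gene, is replaced by GFP, so that cells using the gene are marked. The dendritic cell gate took GFP-high cells with high MHC class II and CD11c (the product of Itgax) that lacked Gr-1 and B220. The monocyte gate took GFP-high cells with CD115 (the product of Csf1r) that lacked B220, and it pooled Gr-1-low with Gr-1-high cells. The remaining sort, GFP-negative, MHC class II-high, CD169-positive cells without Gr-1 and B220, is labelled macrophages (3 libraries) and is given beside the comparison. The age, the sex and the number of mice behind a library are not in the labels, so p-values measure the spread between libraries and may in part reflect technical variation.

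The monocytes and macrophages are labelled baseline, with no injection named. The 3 dendritic cell columns carry no treatment in their names. Each held exactly the same value as the vehicle column of its own number in the separate dendritic cell table for 66.1%, 64.8% and 65.0% of 17118 genes, and a lower value for 0% of them. Their correlation with that column across genes, on the log2(CPM + 1) scale, was 0.99, 0.991 and 0.991, against 0.912 to 0.965 for the columns of mice given the lipopeptide PAM3CSK4. They therefore appear to be vehicle libraries 1, 2 and 3; why the other values differ was not tested. If so, the vehicle injection and the cell type cannot be told apart in this comparison.

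Values are CPM, reads scaled to a common library total and not divided by gene length, so a level is compared between libraries and not between genes. If the smallest step between values is 1 read, 1 CPM stood for 71.6, 37.9 and 39.1 reads in dendritic cell replicates 1, 2 and 3 and for 56.5, 49.9 and 53.3 reads in monocyte replicates 1, 2 and 3. The listed genes held 41.6%, 55.2% and 57.0% of the scaled total in dendritic cells and 57.9%, 53.3% and 51.6% in monocytes. A value of 0.0001 CPM is the lowest the table holds. Monocyte replicate 1 was nearer to the dendritic cell libraries across genes than the other monocyte libraries were. Its correlation with the dendritic cells was 0.919 to 0.945, against 0.854 to 0.898 for replicate 2 and 0.885 to 0.902 for replicate 3. Among the monocyte libraries, replicates 1 and 3 correlated at 0.974, 2 and 3 at 0.938 and 1 and 2 at 0.919. Of the 551 genes that were higher in dendritic cells by the test given next, monocyte replicate 1 had the highest monocyte level in 473. In the 290 of these genes with a dendritic cell mean of at least 20 CPM, its median level was 43.8% of the dendritic cell mean, against 21.2% in monocyte replicate 2 and 20.02% in monocyte replicate 3. List counts, and calls of the genes named by rule, that change without this library are given both ways.

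Conventional dendritic cells take up antigen, cut it into peptides and show the peptides on MHC class II to CD4+ T cells. The textbook divides them into cDC1, which depend on IRF8 and BATF3 and present antigen from dead cells to CD8+ T cells, and cDC2, which use IRF4 and carry lectins such as CD209a. Monocytes arise from marrow progenitors: classical monocytes carry Ly6C and CCR2 and are released to inflamed tissue, whereas nonclassical monocytes depend on NR4A1 and patrol vessels.

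The test was limma on log2(CPM + 1), and differences are dendritic cells minus monocytes on that scale, which understates the change of genes with low values. Of 11489 genes tested, 1117 differed at an adjusted p under 0.05, which is 9.72%: 551 were higher in dendritic cells (4.8%) and 566 were lower (4.93%). At least a 4-fold difference was reached by 212 of the higher genes and 96 of the lower ones. The 3 dendritic cell libraries lay above all 3 monocyte libraries in 8.76% of genes tested and below all of them in 17.4%, and 536 of the 551 higher genes and 564 of the 566 lower genes were among these. The median difference over all genes tested was −0.15, and 49.3% of the genes called were higher in dendritic cells. After each library was centred on its median, the median difference was −0.00 and the share called higher was 60.7%. Without dendritic cell replicate 1 the counts were 359 higher and 272 lower, without dendritic cell replicate 2 they were 353 and 383, and without monocyte replicate 1 they were 733 and 562.

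**Figure D1:**
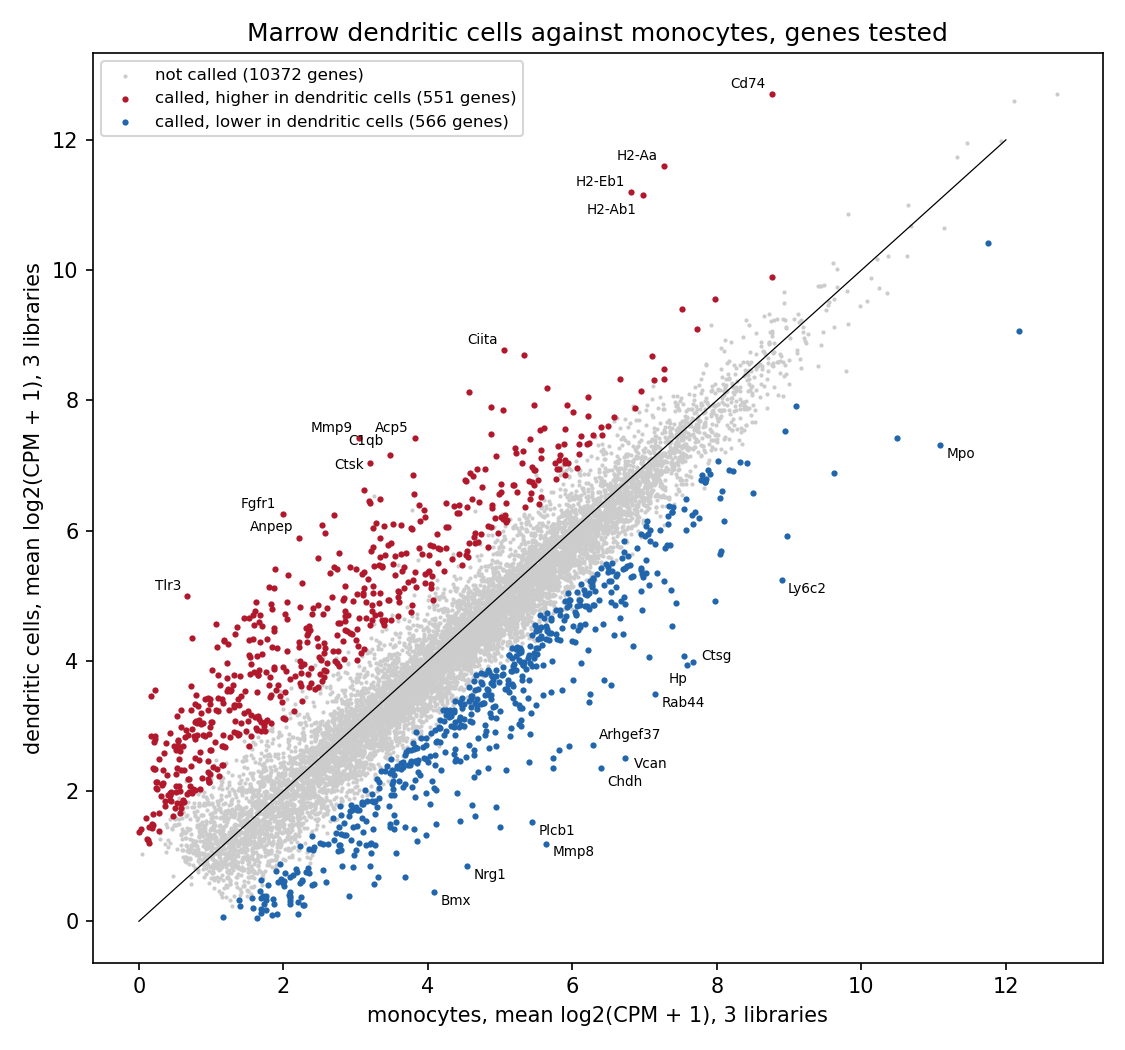
Mean level of each of the 11489 genes tested in 3 monocyte libraries (x axis) and 3 dendritic cell libraries (y axis), both as log2(CPM + 1); red points are the 551 genes called higher in dendritic cells, blue points the 566 called lower, grey points the rest, and the line marks equal means. The 12 largest differences each way are named, and the MHC class II genes with Cd74 sit at the upper edge.

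The labels were checked first against the genes of the sorting markers, whose levels the gates themselves set. Itgax was 266, 282 and 177 CPM in dendritic cell replicates 1 to 3 and 78.9, 19.99 and 13.8 CPM in monocyte replicates 1 to 3 (log2 difference 3.03 ± 0.49 (SE), adjusted p = 0.001581). Csf1r, which was part of the monocyte gate only, was 444, 634 and 427 CPM in dendritic cells and 859.8, 328 and 489.7 CPM in monocytes (log2 difference −0.07 ± 0.36 (SE), adjusted p = 0.94843). The groups overlapped, and the highest Csf1r value was that of monocyte replicate 1. Cx3cr1 was 107, 172 and 189 CPM in dendritic cells and 208, 83.1 and 89.7 CPM in monocytes, also with overlap. In the GFP-negative macrophages it was 5.06, 1.54 and 5.90 CPM. Whether these reads came only from the copy without GFP was not tested. Gr-1 antibodies see the products of Ly6g and Ly6c2. Ly6g did not exceed 0.153 CPM in any of the 6 libraries, and Ly6c2 was 23.2, 49.3 and 43.2 CPM in dendritic cells against 319, 555 and 611 CPM in monocytes (log2 difference −3.66 ± 0.34 (SE), adjusted p = 5.1818e-05). Siglec1, which encodes CD169, was 42.5, 59.4 and 32.1 CPM in dendritic cells, 34.7, 2.20 and 14.1 CPM in monocytes and 18.9, 18.6 and 25.2 CPM in macrophages, so the gene of the macrophage gate had higher values in the dendritic cell libraries than in the libraries sorted for it. The pan-leukocyte gene Ptprc was 549, 637 and 709 and 478, 432 and 314 CPM (log2 difference 0.64 ± 0.29 (SE), adjusted p = 0.21958). Siglec1 passed the threshold with all 9 libraries fitted or without monocyte replicate 1 or 3 (adjusted p 0.00036 to 0.049). Ptprc passed the threshold after rescaling to a common total, after median centring or after quantile normalization (adjusted p 0.035 to 0.04).

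Antigen presentation on MHC class II held 5 of the 12 largest differences in favour of dendritic cells. All 15 tested genes of the MHC class II and peptide loading list had every dendritic cell library above every monocyte library. Of all genes tested, 8.76% did so. In the list 12 of 15 were called higher and 0 lower, against 4.8% of all genes called higher. The median difference of the list was 2.54, against −0.15 over all genes. The gate selected MHC class II protein, so the differences of the chain genes H2-Aa, H2-Ab1 and H2-Eb1 follow from how the cells were chosen; without these 3, 9 of 12 were called higher with a median of 2.07. The mean level of the list was 7.89, 8.14 and 8.09 log2(CPM + 1) in dendritic cells and 6.46, 5.07 and 4.64 in monocyte replicates 1 to 3. It was 6.03, 6.46 and 6.31 in the macrophages, whose gate also asked for high MHC class II.

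Promoter sequences of 4 of these genes are shown because the members of the pathway were higher together and share a known promoter layout, in which the Y box (ATTGG, bound by the factor NF-Y) lies next to the X box at which CIITA is recruited. They are the called members with the smallest p and an entry in the RefSeq promoter table (GRCm38.p6, the mm10 assembly), each from 250 bases before to 50 bases after the annotated start, 5′ to 3′ on the strand of the gene, with the Y box in capitals. The first base of the Y box is 43 bases before the start in H2-Oa (chr17:34092129-34092428, plus strand), 57 in H2-Ob (chr17:34238655-34238954, plus strand), 61 in H2-DMb1 (chr17:34152941-34153240, plus strand) and 48 in H2-Aa (chr17:34287774-34288073, minus strand).
H2-Oa: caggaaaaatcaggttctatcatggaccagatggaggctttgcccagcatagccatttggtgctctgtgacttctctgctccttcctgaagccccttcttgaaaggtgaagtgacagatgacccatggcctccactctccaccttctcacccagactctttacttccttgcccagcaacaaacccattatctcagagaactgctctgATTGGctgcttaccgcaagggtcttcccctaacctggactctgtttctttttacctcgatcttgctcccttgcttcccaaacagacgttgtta
H2-Ob: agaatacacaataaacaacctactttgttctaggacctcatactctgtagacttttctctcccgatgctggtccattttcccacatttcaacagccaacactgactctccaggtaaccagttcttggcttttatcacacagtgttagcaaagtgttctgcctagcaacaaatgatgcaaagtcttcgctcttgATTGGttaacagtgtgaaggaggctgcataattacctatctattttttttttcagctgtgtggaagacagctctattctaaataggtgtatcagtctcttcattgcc
H2-DMb1: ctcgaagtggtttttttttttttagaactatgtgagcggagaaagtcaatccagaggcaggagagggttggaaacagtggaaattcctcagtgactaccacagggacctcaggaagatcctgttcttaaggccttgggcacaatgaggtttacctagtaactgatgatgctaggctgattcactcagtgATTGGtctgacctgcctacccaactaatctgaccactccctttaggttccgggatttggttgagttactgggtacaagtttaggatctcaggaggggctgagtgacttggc
H2-Aa: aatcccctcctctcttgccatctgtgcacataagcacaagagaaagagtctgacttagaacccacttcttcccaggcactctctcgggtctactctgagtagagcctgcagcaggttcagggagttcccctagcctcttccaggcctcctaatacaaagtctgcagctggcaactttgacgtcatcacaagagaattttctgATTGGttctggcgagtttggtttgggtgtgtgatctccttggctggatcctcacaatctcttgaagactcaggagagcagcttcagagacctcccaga
ATTGG or, on the other strand, CCAAT was found in 8 of the 11 tested list genes with a promoter entry (72.7%) and in 3582 of the 9065 tested genes with one (39.5%). A match of these 5 letters is a description of the window and not a binding site.

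The chain genes came first. H2-Aa, the alpha chain of I-A, was 2773, 3329.6 and 3214 CPM in dendritic cells and 589, 136 and 44.5 CPM in monocytes (log2 difference 4.33 ± 0.65 (SE), adjusted p = 0.0010964). H2-Ab1, the beta chain of I-A, was 2526, 2456 and 1878 CPM against 596, 75.8 and 42.2 CPM (log2 difference 4.18 ± 0.69 (SE), adjusted p = 0.0018916), and H2-Eb1, the beta chain of I-E, was 2441, 2468 and 2152 CPM against 485, 82.8 and 34.2 CPM (log2 difference 4.38 ± 0.67 (SE), adjusted p = 0.0011496). Monocyte replicate 1 was the highest monocyte library for each of the 3 chain genes and still lay below every dendritic cell library. Cd74, the invariant chain that guides MHC class II to the peptide loading compartment, was 6509, 7012 and 6433 CPM in dendritic cells and 1819.5, 325 and 136 CPM in monocytes (log2 difference 3.94 ± 0.67 (SE), adjusted p = 0.002349). Ciita, the transactivator on which MHC class II transcription depends, was 486, 473 and 359.8 CPM against 124, 21.5 and 12.2 CPM (log2 difference 3.71 ± 0.59 (SE), adjusted p = 0.0015389). These 2 genes were not part of the gate, and monocyte replicate 1 was again the highest monocyte library for both, below all dendritic cell libraries. Cd74 missed the threshold without the filter on low values (adjusted p = 0.063).

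Genes that load and edit the peptides differed as well. H2-DMb1, a chain of H2-DM, which exchanges the invariant chain peptide for antigen peptides, was 284, 294 and 294 CPM in dendritic cells and 103, 35.9 and 32.2 CPM in monocytes (log2 difference 2.54 ± 0.38 (SE), adjusted p = 0.0010514). The other beta chain gene, H2-DMb2, was 14.97, 19.1 and 22.4 CPM against 5.47, 2.33 and 3.66 CPM (log2 difference 2.08 ± 0.32 (SE), adjusted p = 0.0012347). H2-DMb1 and H2-DMb2 are near copies, so reads may have been split between them. The chains of H2-O, which holds H2-DM back, had the smallest p of the list: H2-Oa was 25.6, 26.4 and 35.4 CPM against 3.41, 1.30 and 1.87 CPM (log2 difference 3.28 ± 0.32 (SE), adjusted p = 6.9702e-05), and H2-Ob was 61.3, 53.2 and 71.1 CPM against 7.96, 6.01 and 2.38 CPM (log2 difference 3.39 ± 0.35 (SE), adjusted p = 9.1282e-05). For both H2-O genes the macrophage values, 13.4, 23.1 and 15.3 CPM and 48.5, 78.7 and 60.1 CPM, were also above all monocyte values. Lgmn, an endosomal protease that cuts the invariant chain, was 118, 182 and 153 CPM against 72.2, 28.3 and 28.3 CPM (log2 difference 1.91 ± 0.35 (SE), adjusted p = 0.0038497). The 3 list members that missed the threshold, named after their values were seen, were the cathepsin gene Ctss (491, 655 and 684 against 446, 334 and 256 CPM, adjusted p = 0.10982), the thiol reductase gene Ifi30 (216, 294 and 289 against 188, 103 and 166 CPM, adjusted p = 0.1064) and the ubiquitin ligase gene March1 (95.7, 112 and 165 against 82.4, 86.5 and 59.3 CPM, adjusted p = 0.18317). All 15 passed once the libraries were median centred, quantile normalized or rescaled to a common total, and 12 passed without any 1 of the 6 libraries. The number called higher was 10 without the filter on low values and 11 of 14 tested with the filter at 5 CPM.

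**Figure D2:**
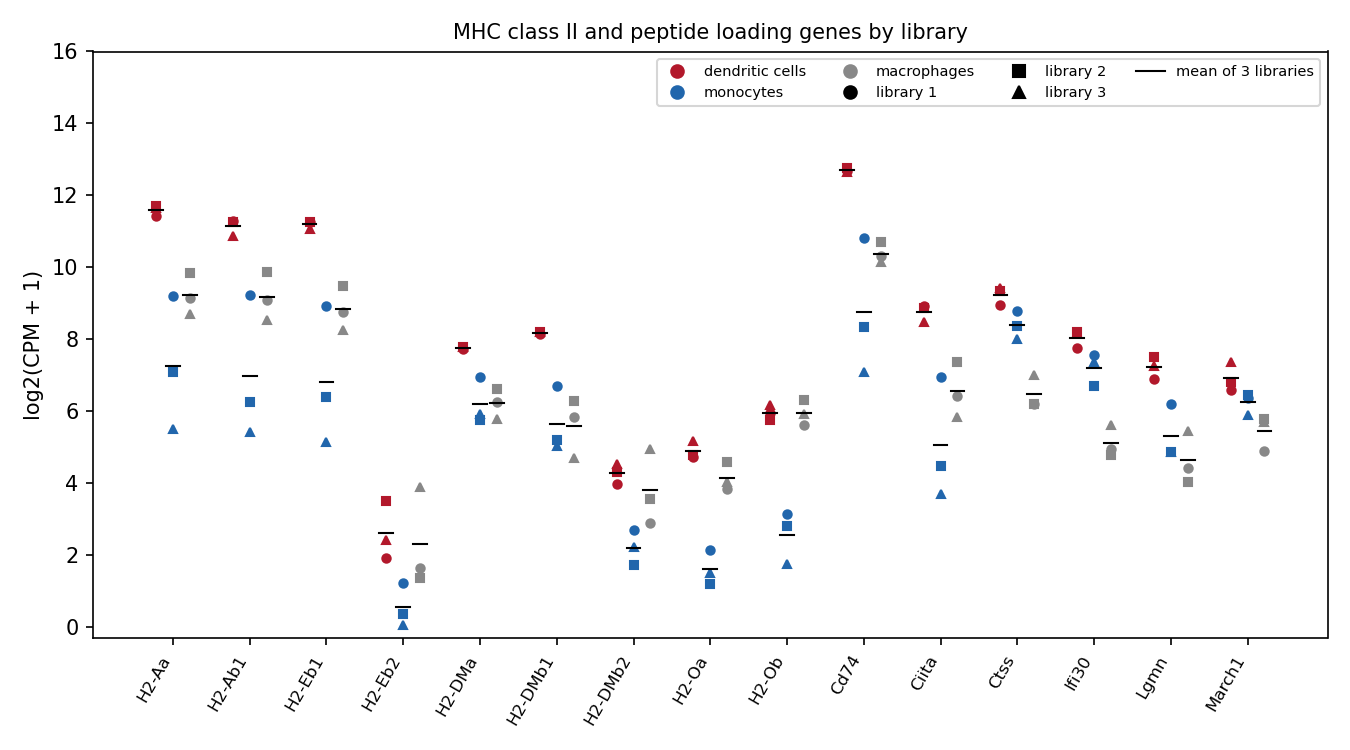
Level of each of the 15 tested genes of MHC class II and peptide loading as log2(CPM + 1), with 1 point per library (circle, square and triangle for libraries 1, 2 and 3; macrophages in grey) and a bar at the mean of 3 libraries. In every gene the red points of dendritic cells lie above the blue points of monocytes, and the circle of monocyte replicate 1 is the monocyte point nearest to them in 14 of the 15 genes.

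Fewer genes of MHC class I were called than of MHC class II. Of 20 tested genes of class I chains and their peptide supply, 2 were called higher and 0 lower, against 4.8% and 4.93% of all genes. The median difference was 0.45. H2-K1, a classical class I chain, was 454, 568 and 446 CPM in dendritic cells and 441, 207 and 232 CPM in monocytes (log2 difference 0.81 ± 0.32 (SE), adjusted p = 0.15819). Monocyte replicate 1 lay just under the lowest dendritic cell value, whereas the other monocyte libraries were well below it. The 2 called members were the nonclassical genes H2-M3 (23.9, 22.5 and 20.9 against 15.4, 6.29 and 8.68 CPM, adjusted p = 0.035468) and H2-Q7 (7.55, 12.7 and 8.38 against 6.31, 2.86 and 1.19 CPM, adjusted p = 0.046823), the second of which belongs to a family of near-identical genes. In the MHC class I list the number called higher was 5 without monocyte replicate 1. H2-M3 missed the threshold without the filter on low values or without dendritic cell replicate 1, 2 or 3 or monocyte replicate 2 or 3 (adjusted p 0.065 to 0.14). H2-Q7 missed the threshold with a pseudocount of 0.1, without the filter on low values, with the filter at 5 CPM or without dendritic cell replicate 1, 2 or 3 or monocyte replicate 2 or 3 (adjusted p 0.053 to 0.2). H2-K1 passed the threshold without monocyte replicate 1 (adjusted p = 0.032).

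Costimulatory and checkpoint genes followed with 5 of 18 called higher and 0 lower, against 4.8% and 4.93% of all genes. The median difference was 0.97. Cd83, a surface protein of activated dendritic cells that keeps MHC class II at the surface, was 32.98, 74.3 and 29.4 CPM in dendritic cells and 12.3, 0.621 and 1.31 CPM in monocytes (log2 difference 3.53 ± 0.62 (SE), adjusted p = 0.002707). Havcr2, the gene of the checkpoint receptor TIM-3, was 29.3, 21.7 and 31.3 CPM against 10.2, 2.10 and 3.38 CPM (log2 difference 2.40 ± 0.41 (SE), adjusted p = 0.0023276). Cd86, a ligand of CD28, was 15.7, 22.5 and 27.5 CPM against 6.74, 9.99 and 5.31 CPM (log2 difference 1.46 ± 0.32 (SE), adjusted p = 0.0091317). In each of the 3 genes every dendritic cell library was above every monocyte library. In the costimulation and checkpoint list the number called higher was 8 after median centring or without monocyte replicate 1, 3 without dendritic cell replicate 2 or 3 or monocyte replicate 3 and 2 without the filter on low values, and the number called lower was 1 after rescaling to a common total, after median centring, after quantile normalization, with all 9 libraries fitted or without monocyte replicate 2. Cd83 and Cd86 missed the threshold without the filter on low values (adjusted p 0.05 to 0.052).

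Outside antigen presentation, the largest differences in favour of dendritic cells were in a receptor kinase, an RNA sensor and several secreted or lysosomal enzymes. Mmp9, a gelatinase that cuts basement membrane collagen, was 106, 141 and 331 CPM in dendritic cells and 29.1, 5.31 and 2.01 CPM in monocytes (log2 difference 4.37 ± 0.65 (SE), adjusted p = 0.0010442). Ctsk, a collagen-cutting cathepsin best known from osteoclasts, was 93.3, 96.9 and 244 CPM against 24.2, 8.73 and 2.14 CPM (log2 difference 3.84 ± 0.59 (SE), adjusted p = 0.0011881), and Acp5, the tartrate-resistant acid phosphatase of the same cells, was 144, 139 and 249 CPM against 35.3, 10.4 and 5.78 CPM (log2 difference 3.61 ± 0.48 (SE), adjusted p = 0.00059138). For these 3 genes dendritic cell replicate 3 was the highest library, monocyte replicate 1 was the highest monocyte library, and the macrophages were low, with 10.8, 6.65 and 13.9 CPM of Mmp9, 0.628, 0.206 and 2.77 CPM of Ctsk and 7.48, 4.15 and 30.5 CPM of Acp5. Atp6v0d2, a subunit of the vacuolar proton pump, was 18.9, 25.5 and 77.8 CPM against 6.15, 4.67 and 0.188 CPM, again highest in dendritic cell replicate 3 (log2 difference 3.25 ± 0.61 (SE), adjusted p = 0.0041744). Atp6v0d2 missed the threshold without the filter on low values (adjusted p = 0.063).

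Tlr3, the endosomal sensor of double-stranded RNA, was 15.6, 33.02 and 55.5 CPM in dendritic cells and 0.884, 0.581 and 0.356 CPM in monocytes (log2 difference 4.32 ± 0.40 (SE), adjusted p = 5.1818e-05). No monocyte library reached 1 CPM, and the macrophages held 58.01, 127 and 27.5 CPM. Fgfr1, a receptor of fibroblast growth factors, was 56.03, 54.8 and 138 CPM against 5.50, 3.91 and 0.975 CPM (log2 difference 4.26 ± 0.45 (SE), adjusted p = 0.00010373). Anpep, the surface peptidase CD13, was 31.9, 87.9 and 70.5 CPM against 11.97, 2.64 and 1.14 CPM (log2 difference 3.67 ± 0.55 (SE), adjusted p = 0.0010788), and the macrophage values of 61.03, 91.4 and 22.8 CPM overlapped those of dendritic cells. C1qb, a chain of the complement starter C1q, was 128, 197 and 113 CPM against 36.96, 4.41 and 5.74 CPM (log2 difference 3.68 ± 0.56 (SE), adjusted p = 0.0011496). The dendritic cell libraries were above all others for Fgfr1 and C1qb, with macrophages at 16.5, 21.5 and 9.99 CPM and 20.97, 17.4 and 27.6 CPM.

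**Figure D3:**
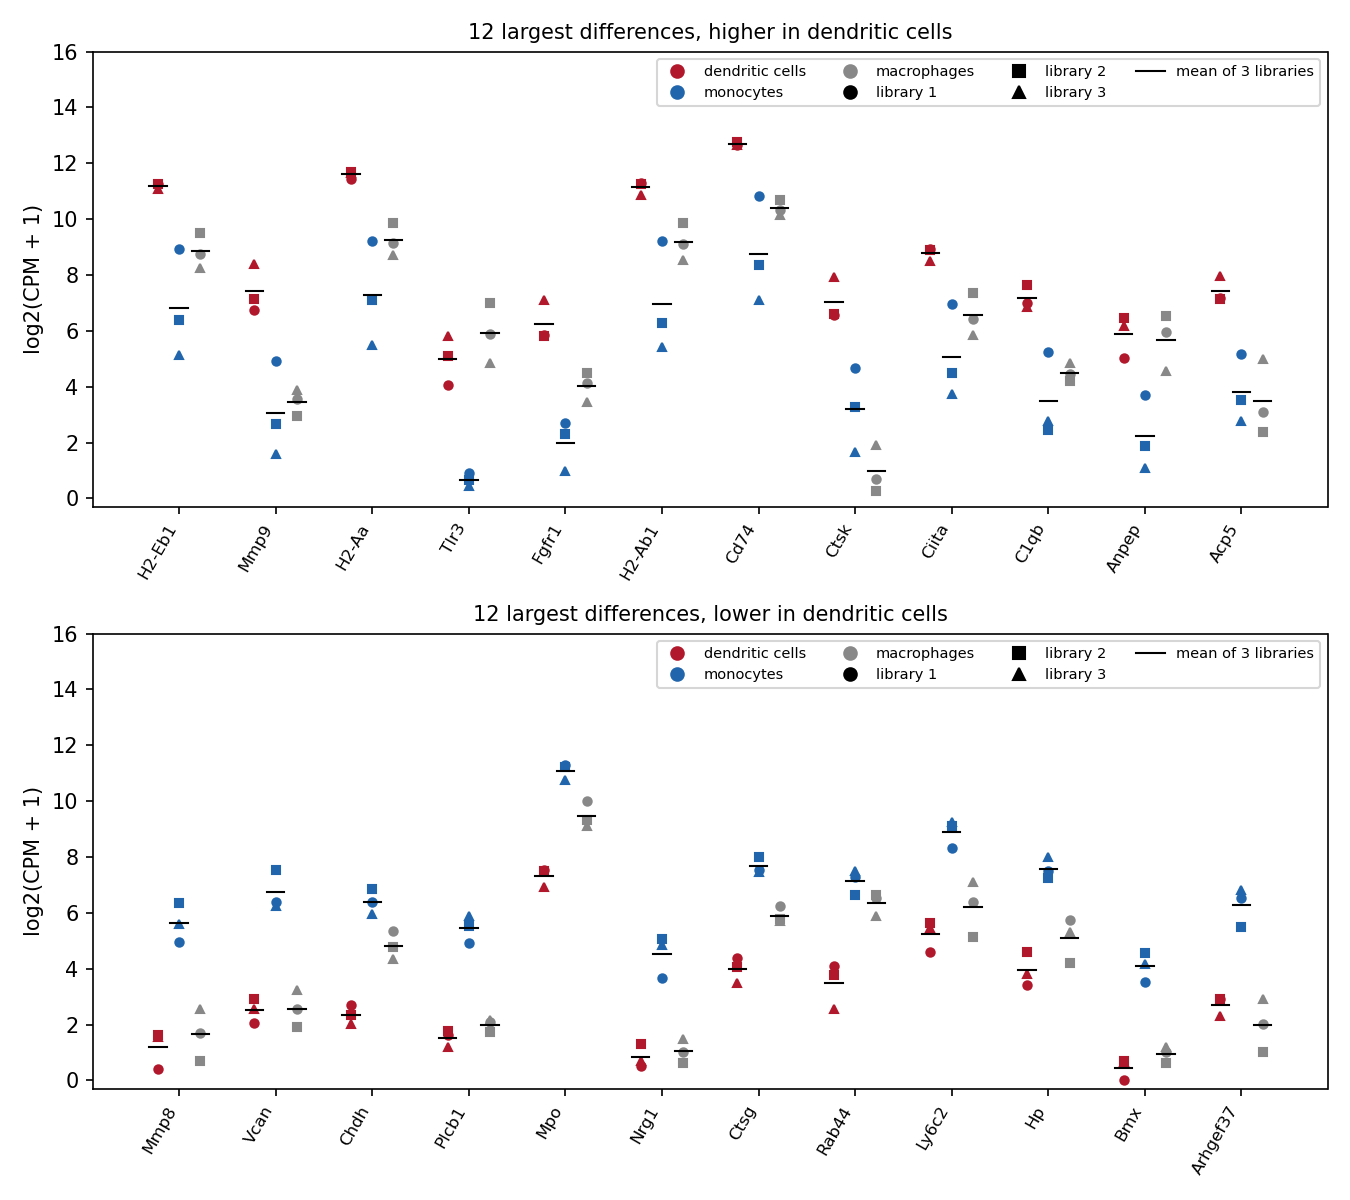
Level of the 12 genes with the largest differences in favour of dendritic cells (upper panel) and of monocytes (lower panel), as log2(CPM + 1), with 1 point per library of dendritic cells (red), monocytes (blue) and macrophages (grey) and a bar at the mean of 3 libraries. Monocyte replicate 1 (blue circle) is the monocyte library nearest to dendritic cells in all 12 genes of the upper panel, while in the lower panel the 3 monocyte libraries take varied orders.

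Markers of dendritic cells were next. Of 13 tested genes shared by conventional dendritic cells, 9 were called higher and 0 lower, against 4.8% and 4.93% of all genes. The median difference was 1.84. Zbtb46, a transcription factor that marks the conventional lineage, was 40.3, 50.7 and 50.6 CPM in dendritic cells and 12.2, 3.18 and 2.12 CPM in monocytes (log2 difference 3.11 ± 0.44 (SE), adjusted p = 0.00079976). Dpp4, the peptidase CD26, was 104, 136 and 198 CPM against 39.05, 42.6 and 15.5 CPM (log2 difference 2.21 ± 0.37 (SE), adjusted p = 0.002263), and Kmo, an enzyme of tryptophan breakdown, was 95.6, 116 and 144 CPM against 41.01, 25.3 and 11.4 CPM (log2 difference 2.30 ± 0.38 (SE), adjusted p = 0.0020155). None of these groups overlapped, and monocyte levels of Dpp4 and Kmo were well above the floor of the table. Flt3, the receptor of the growth factor on which dendritic cells depend, was 194, 241 and 393 CPM against 117, 103 and 31.99 CPM (log2 difference 1.84 ± 0.43 (SE), adjusted p = 0.014993). Ccr7, which guides dendritic cells to lymph nodes, was 3.05, 12.5 and 10.1 CPM against 3.06, 2.00 and 0.319 CPM, and dendritic cell replicate 1 lay within the monocyte range. Kit (53.1, 77.3 and 126 against 54.7, 76.5 and 34.5 CPM), Bcl11a (76.3, 92.2 and 109 against 83.1, 57.3 and 36.6 CPM) and Btla (31.7, 50.8 and 101 against 19.5, 41.7 and 20.1 CPM) were not called. In the shared dendritic cell list the number called higher was 4 without the filter on low values. Flt3 missed the threshold without the filter on low values or without dendritic cell replicate 1 or 3 (adjusted p 0.064 to 0.098). Ccr7 missed the threshold with a pseudocount of 0.1, without the filter on low values, after quantile normalization, with all 9 libraries fitted or without dendritic cell replicate 2 or 3 or monocyte replicate 3 (adjusted p 0.053 to 0.17). Btla passed the threshold without monocyte replicate 2 (adjusted p = 0.024).

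Markers of both conventional subsets included genes that were higher in the dendritic cell libraries. Of 15 tested cDC1 genes, 12 were called higher and 0 lower, against 4.8% and 4.93% of all genes (median 2.21). The 3 cDC1 genes not called, named after the calls were seen, were Irf8, Naaa and Cd24a. Of 13 tested cDC2 genes, 7 were called higher and 0 lower (median 1.74, or 1.10 without monocyte replicate 3). The cDC2 genes included Cd209a, a lectin of the DC-SIGN family, at 404, 443 and 394 CPM against 106, 40.01 and 13.7 CPM (log2 difference 3.37 ± 0.51 (SE), adjusted p = 0.0011753). Clec10a, a galactose-binding lectin, was 210.3, 185 and 144 CPM against 57.9, 22.3 and 17.6 CPM (log2 difference 2.60 ± 0.38 (SE), adjusted p = 0.00098781), and its neighbour Mgl2 was 174, 106 and 37.6 CPM against 23.6, 5.58 and 5.42 CPM (log2 difference 3.15 ± 0.55 (SE), adjusted p = 0.0027887). The macrophage libraries held at most 3.47 CPM of any of these 3 lectins, so they separated dendritic cells from both other sorts. Irf4, the transcription factor of cDC2, was 119, 159.7 and 192 CPM against 76.01, 32.7 and 18.4 CPM (log2 difference 2.07 ± 0.41 (SE), adjusted p = 0.0057123). Sirpa, which cDC2 and monocytes share, was 528, 712 and 578 CPM against 704, 347 and 489 CPM with overlap. Esam and Clec4a4, which mark cDC2 of the spleen, did not exceed 1.49 CPM in any dendritic cell library. Of the 13 tested cDC2 genes, 6 were not called. They were Sirpa, Clec4a4 and, named after the calls were seen, Ltb, Tbx21, Notch2 and Itgam. Whether the called genes mark cDC2 in these libraries was not tested. In the cDC1 list the number called higher was 8 of 16 tested without the filter on low values and 9 of 12 with the filter at 5 CPM. It was 10 without dendritic cell replicate 1 or 3, 11 without replicate 2 and 13 after rescaling, median centring or quantile normalization. In the cDC2 list the number called higher was 8 without monocyte replicate 1 and 4 without the filter on low values or without dendritic cell replicate 1. Mgl2 missed the threshold without dendritic cell replicate 1 (adjusted p = 0.058). Irf4 missed the threshold without the filter on low values or with all 9 libraries fitted (adjusted p = 0.058).

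Several cDC1 genes that were above monocytes were not above macrophages, a comparison given as values with no test. Clec9a, the receptor for actin of dead cells, was 52.02, 65.3 and 77.97 CPM in dendritic cells, 17.7, 19.5 and 5.68 CPM in monocytes and 59.4, 161 and 28.3 CPM in macrophages (log2 difference 2.25 ± 0.39 (SE), adjusted p = 0.0024487 against monocytes). Cadm1, an adhesion molecule of cDC1, was 14.9, 31.7 and 47.5, 5.14, 3.14 and 0.748 and 40.2, 80.4 and 24.9 CPM (log2 difference 3.05 ± 0.47 (SE), adjusted p = 0.0012611). Xcr1, the chemokine receptor that defines cDC1, was 2.15, 7.07 and 9.63, 0.0885, 1.10 and 0.188 and 73.8, 148 and 29.1 CPM (log2 difference 2.21 ± 0.44 (SE), adjusted p = 0.0057254). All 3 macrophage libraries exceeded all 3 dendritic cell libraries for Xcr1, and Itgae, which encodes CD103, was at 0.671, 1.11 and 0.358 CPM in dendritic cells against 12.9, 24.3 and 10.3 CPM in macrophages. Tlr11, the profilin sensor of cDC1, was 25.1, 20.5 and 21.97 CPM against 4.53, 1.26 and 1.18 CPM (log2 difference 2.96 ± 0.36 (SE), adjusted p = 0.00030244), and Wdfy4, which cross-presentation needs, was 618, 874 and 800.2 CPM against 324, 176 and 278 CPM (log2 difference 1.59 ± 0.31 (SE), adjusted p = 0.0053075). Batf3 was 16.1, 18.2 and 7.59 CPM against 6.76, 0.441 and 1.44 CPM (log2 difference 2.23 ± 0.52 (SE), adjusted p = 0.013788). In bulk samples, a smaller share of cells of one kind and less RNA in each cell cannot be told apart. Xcr1 missed the threshold without the filter on low values (adjusted p = 0.054). Batf3 missed the threshold without the filter on low values or without dendritic cell replicate 1 (adjusted p 0.11 to 0.14).

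Plasmacytoid dendritic cells were excluded by the B220 gate. Of 11 tested genes of these cells, 2 were called higher and 0 lower, against 4.8% and 4.93% of all genes. The median difference was 0.55. The 2 were Spib, an ETS factor, at 24.4, 59.6 and 48.3 CPM against 21.8, 4.99 and 2.74 CPM (log2 difference 2.41 ± 0.54 (SE), adjusted p = 0.011192) and Blnk, an adaptor of B cell receptor signalling, at 7.74, 18.4 and 13.7 CPM against 5.48, 0.541 and 0.844 CPM (log2 difference 2.36 ± 0.49 (SE), adjusted p = 0.0071323). Tlr9 was 102, 152 and 121 CPM against 107, 36.4 and 57.4 CPM with overlap, and Ccr9 did not exceed 3.82 CPM in dendritic cells. In the plasmacytoid list the number called higher was 3 without monocyte replicate 1. The plasmacytoid median was 0.30 without dendritic cell replicate 2 and 0.36 without dendritic cell replicate 3. Spib missed the threshold without the filter on low values, with all 9 libraries fitted or without dendritic cell replicate 1 (adjusted p 0.053 to 0.096). Blnk missed the threshold without the filter on low values (adjusted p = 0.076). Tlr9 passed the threshold without monocyte replicate 1 (adjusted p = 0.0073).

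Classical monocyte genes showed the opposite direction. Of 18 tested, 13 were called lower in dendritic cells and 0 higher, against 4.93% of all genes called lower, and the median difference was −2.69. Vcan, the matrix proteoglycan versican, was 83.5, 186 and 74.8 CPM in monocytes and 3.16, 6.51 and 4.93 CPM in dendritic cells (log2 difference −4.22 ± 0.36 (SE), adjusted p = 4.0704e-05). Mmp8, the neutrophil collagenase, was 30.05, 80.8 and 47.8 CPM against 0.321, 2.08 and 1.92 CPM (log2 difference −4.45 ± 0.41 (SE), adjusted p = 5.1818e-05). Fn1, which encodes fibronectin, was 4067, 4472 and 5586 CPM against 483, 628 and 499 CPM (log2 difference −3.13 ± 0.32 (SE), adjusted p = 8.6074e-05). In all 3 genes the groups were far apart, and every dendritic cell library still held measurable Fn1. F13a1, a coagulation factor subunit, was 1068, 1990 and 1397 CPM against 113, 204 and 216 CPM (log2 difference −3.07 ± 0.34 (SE), adjusted p = 0.00015461), and Chil3, a chitinase-like lectin, was 295, 1059 and 402 CPM against 40.5, 81.5 and 62.99 CPM (log2 difference −3.06 ± 0.42 (SE), adjusted p = 0.00070847). Hp, the haemoglobin scavenger haptoglobin, was 182, 151 and 254 CPM against 9.77, 23.2 and 12.9 CPM (log2 difference −3.65 ± 0.33 (SE), adjusted p = 5.1818e-05), and coagulation factor gene F5 was 40.6, 66.1 and 52.4 CPM against 2.67, 4.83 and 5.26 CPM (log2 difference −3.37 ± 0.31 (SE), adjusted p = 5.1818e-05). Ccr2, the receptor by which monocytes leave marrow, did not follow this pattern: it was 648, 914 and 518 CPM in monocytes and 592, 914 and 1199 CPM in dendritic cells (log2 difference 0.36 ± 0.35 (SE), adjusted p = 0.63848), with the highest value in dendritic cell replicate 3 and 140.3, 190 and 134 CPM in macrophages. In the classical monocyte list the number called higher was 1 without monocyte replicate 1.

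The matrix and coagulation list, which shares several of these members, was split. Of 18 tested, 9 were called lower and 3 higher, against 4.93% and 4.8% of all genes, with a median of −0.81. Mmp9 was on the higher side and Mmp8 on the lower, although both encode metalloproteinases of neutrophil granules. Thbs1, an adhesive matrix glycoprotein, was 18.96, 31.6 and 22.9 CPM in monocytes and 5.78, 4.72 and 4.16 CPM in dendritic cells (log2 difference −2.09 ± 0.29 (SE), adjusted p = 0.00079976). Thbs1 missed the threshold with all 9 libraries fitted (adjusted p = 0.062).

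Other genes among the 12 largest differences in favour of monocytes came from several pathways. Chdh, the first enzyme of choline oxidation, was 82.8, 114 and 61.6 CPM in monocytes and 5.50, 4.09 and 3.07 CPM in dendritic cells (log2 difference −4.04 ± 0.31 (SE), adjusted p = 3.4247e-05). Plcb1, a phospholipase downstream of G protein-coupled receptors, was 28.97, 45.6 and 58.5 CPM against 2.05, 2.37 and 1.28 CPM (log2 difference −3.93 ± 0.32 (SE), adjusted p = 3.4247e-05). Nrg1, a ligand of ERBB receptors, was 11.8, 32.7 and 28.2 CPM against 0.447, 1.48 and 0.613 CPM (log2 difference −3.70 ± 0.39 (SE), adjusted p = 9.7516e-05). Each of these 3 genes was below 6 CPM in every dendritic cell library. Bmx, a TEC family tyrosine kinase, was 10.5, 22.5 and 17.1 CPM against 0.0001, 0.607 and 0.562 CPM (log2 difference −3.64 ± 0.35 (SE), adjusted p = 6.388e-05). Arhgef37, a predicted guanine nucleotide exchange factor, was 91.1, 43.9 and 113 CPM against 6.48, 6.51 and 3.99 CPM (log2 difference −3.57 ± 0.35 (SE), adjusted p = 8.0096e-05). Rab44, a large RAB GTPase, was 154, 98.97 and 182 CPM against 16.2, 12.7 and 4.93 CPM (log2 difference −3.66 ± 0.38 (SE), adjusted p = 9.3759e-05), and it was the one of these genes with macrophage values, 90.7, 99.8 and 58.4 CPM, that reached into the range of monocytes.

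Nonclassical monocyte genes were not lower as a group. Of 16 tested, 3 were called higher in dendritic cells and 2 lower, against 4.8% and 4.93% of all genes. The median difference was 0.72. The mean level of the list was 4.88, 5.41 and 4.47 log2(CPM + 1) in dendritic cells and 5.56, 3.95 and 4.33 in monocyte replicates 1 to 3. Nr4a1, the orphan receptor these monocytes need, was 52.3, 53.7 and 22.1 CPM in dendritic cells and 102, 7.97 and 28.1 CPM in monocytes (log2 difference 0.44 ± 0.65 (SE), adjusted p = 0.77811). Ace, the angiotensin-converting enzyme, was 109.8, 175 and 39.8 CPM against 266, 25.7 and 56.3 CPM (log2 difference 0.32 ± 0.68 (SE), adjusted p = 0.85993), and Treml4, a receptor for dead cells, was 19.7, 32.7 and 16.2 CPM against 33.8, 6.49 and 7.48 CPM (log2 difference 0.81 ± 0.49 (SE), adjusted p = 0.39592). For all 3 genes monocyte replicate 1 had the highest value of the 6 libraries, and the other monocyte libraries were within or below the dendritic cell range. Cd36, a scavenger receptor, was 23.04, 50.3 and 27.003 CPM against 11.5, 9.45 and 3.06 CPM (log2 difference 2.01 ± 0.42 (SE), adjusted p = 0.0074234). The 2 lower members were Arhgef37, given above, and Cebpb, the C/EBP factor of monocyte survival, at 9.47, 18.2 and 6.03 CPM against 105, 32.5 and 120.5 CPM (log2 difference −2.75 ± 0.47 (SE), adjusted p = 0.002321). Spn, which encodes CD43, was 198, 304 and 322 CPM against 415, 340 and 325 CPM and was not called. In the nonclassical monocyte list the number called higher was 9 without monocyte replicate 1 and 1 without the filter on low values. The nonclassical monocyte median was 0.39 without dendritic cell replicate 2, 1.32 without monocyte replicate 1, 0.27 without monocyte replicate 2 and 0.47 without monocyte replicate 3. Cd36 missed the threshold without the filter on low values (adjusted p = 0.065). Treml4 passed the threshold without monocyte replicate 1 (adjusted p = 0.0062).

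Most macrophage genes were higher in the dendritic cell libraries. Of 19 tested, 11 were called higher and 0 lower, against 4.8% and 4.93% of all genes (median 1.89). C1qa was 93.4, 139 and 71.3 CPM in dendritic cells, 25.3, 2.52 and 6.13 CPM in monocytes and 26.7, 23.5 and 30.5 CPM in the libraries sorted as macrophages (log2 difference 3.50 ± 0.55 (SE), adjusted p = 0.001336 against monocytes). Mrc1, the mannose receptor, was 232, 291 and 212, 96.7, 36.8 and 22.2 and 47.7, 34.7 and 67.98 CPM in the same order (log2 difference 2.47 ± 0.42 (SE), adjusted p = 0.0023123). Cd163, the haemoglobin-haptoglobin receptor, was 88.7, 48.4 and 64.6, 23.7, 19.1 and 13.7 and 38.1, 26.5 and 38.8 CPM (log2 difference 1.77 ± 0.30 (SE), adjusted p = 0.0024487). For C1qa, Mrc1 and Cd163 every dendritic cell library was above every macrophage library. Mertk, a receptor for dying cells, was 13.4, 35.7 and 22.4 CPM against 9.05, 2.90 and 2.38 CPM in monocytes (log2 difference 2.18 ± 0.43 (SE), adjusted p = 0.0057123), and Spic, the transcription factor of iron-recycling macrophages, was 6.31, 8.52 and 7.18 CPM against 1.24, 0.441 and 0.938 CPM (log2 difference 2.17 ± 0.31 (SE), adjusted p = 0.0008535). Vcam1 was 29.2, 121 and 79.1 CPM against 29.8, 12.9 and 15.1 CPM (log2 difference 1.81 ± 0.45 (SE), adjusted p = 0.020567). Adgre1, the gene of F4/80, was 123, 144 and 99.6 CPM against 93.9, 42.6 and 59.99 CPM and was not called (log2 difference 0.95 ± 0.31 (SE), adjusted p = 0.077598). Timd4, Vsig4 and Folr2 did not exceed 1.02 CPM in any of the 6 libraries and Lyve1 did not exceed 2.03 CPM. Whether a share of macrophages within the dendritic cell sort contributed to these levels was not tested. In the macrophage list the number called higher was 17 without monocyte replicate 1 and 6 without the filter on low values. Mertk missed the threshold without the filter on low values (adjusted p = 0.062). Vcam1 missed the threshold without the filter on low values or without dendritic cell replicate 2 or 3 (adjusted p 0.069 to 0.11). Adgre1 passed the threshold after median centring or without monocyte replicate 1 (adjusted p 0.016 to 0.04).

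Iron and haem handling showed a mixed picture, with 5 of 18 tested genes called higher and 1 lower (Hp). The shares over all genes were 4.8% and 4.93%, and the list median was 0.27. Trf, the iron carrier transferrin, was 353, 444 and 434 CPM in dendritic cells and 248, 113 and 90.7 CPM in monocytes (log2 difference 1.57 ± 0.35 (SE), adjusted p = 0.011196). Slc40a1, the iron exporter ferroportin, was 15.1, 70.9 and 29.8 CPM against 15.9, 3.64 and 7.16 CPM (log2 difference 1.93 ± 0.52 (SE), adjusted p = 0.030641), with dendritic cell replicate 1 below monocyte replicate 1. In the iron and haem list the number called higher was 3 without dendritic cell replicate 1 or 3 or monocyte replicate 2, 2 without dendritic cell replicate 2 or monocyte replicate 3 and 1 without the filter on low values, and the number called lower was 2 with the filter at 5 CPM or without monocyte replicate 2. Trf missed the threshold without the filter on low values or without dendritic cell replicate 1 or monocyte replicate 3 (adjusted p 0.051 to 0.07). Slc40a1 missed the threshold without the filter on low values or without dendritic cell replicate 2 or 3 or monocyte replicate 2 (adjusted p 0.063 to 0.15).

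**Figure D4:**
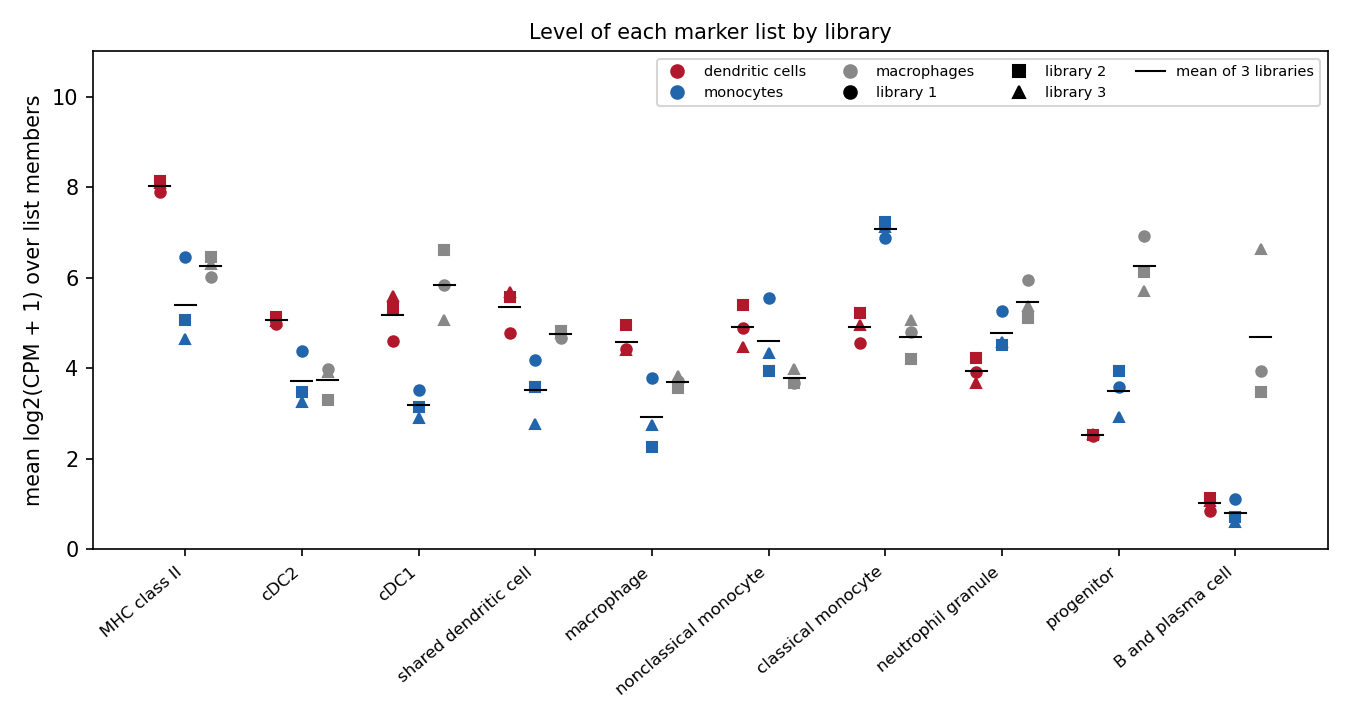
Mean log2(CPM + 1) over the members of 10 marker lists in each library, with 1 point per library of dendritic cells (red), monocytes (blue) and macrophages (grey) and a bar at the mean of 3 libraries. Monocyte replicate 1 (blue circle) is the highest monocyte library for the MHC class II, cDC1, cDC2, shared dendritic cell, macrophage and nonclassical lists, and the 3 dendritic cell libraries lie below the 3 monocyte libraries for the classical monocyte, neutrophil granule and progenitor lists.

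Several neutrophil granule genes were higher in monocytes. Of 18 tested, 7 were called lower in dendritic cells and 1 higher (Mmp9), against 4.93% and 4.8% of all genes. The 10 not called, named after the calls were seen, were S100a8, S100a9, Ltf, Camp, Ngp, Lcn2, Retnlg, Cxcr2, Cebpe and Pglyrp1. Over the list, 12 differences were negative and 6 positive. Mpo, the myeloperoxidase of primary granules, was 2486, 2402 and 1743 CPM in monocytes and 182, 178 and 119.9 CPM in dendritic cells (log2 difference −3.79 ± 0.30 (SE), adjusted p = 3.4247e-05). Elane, neutrophil elastase, was 251, 243 and 260.1 CPM against 42.1, 33.2 and 17.5 CPM (log2 difference −3.07 ± 0.31 (SE), adjusted p = 8.9043e-05), Prtn3, proteinase 3, was 216, 122 and 240.2 CPM against 23.2, 21.7 and 7.66 CPM (log2 difference −3.47 ± 0.39 (SE), adjusted p = 0.00016758), and Ctsg, cathepsin G, was 183, 253 and 177 CPM against 19.7, 15.9 and 10.3 CPM (log2 difference −3.68 ± 0.29 (SE), adjusted p = 3.4247e-05). These 4 primary granule genes are also used by the common precursors of neutrophils and monocytes, and their macrophage values, such as 1025, 641 and 548 CPM of Mpo, lay between the other groups. Cd177 was 118, 79.98 and 81.1 CPM against 8.47, 16.5 and 10.6 CPM (log2 difference −2.90 ± 0.30 (SE), adjusted p = 9.3759e-05), and Padi4, which citrullinates histones, was 23.8, 22.1 and 26.9 CPM against 2.68, 3.27 and 0.843 CPM (log2 difference −3.04 ± 0.34 (SE), adjusted p = 0.00015461). The median of the list was −0.58, and Ly6g was near the lowest value of the table. The dendritic cell gate removed Gr-1-positive cells and the monocyte gate kept them. In the neutrophil granule list the number called higher was 3 without monocyte replicate 1.

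Several progenitor genes were also lower, with 7 of 13 tested called lower in dendritic cells and 1 higher. The shares over all genes were 4.93% and 4.8%, and the list median was −1.23. Myb, which maintains blood progenitors, was 164, 252 and 109.6 CPM in monocytes and 21.5, 23.3 and 21.8 CPM in dendritic cells (log2 difference −2.85 ± 0.31 (SE), adjusted p = 0.00012712). Cd34 was 78.04, 119 and 43.6 CPM against 7.27, 9.71 and 11.4 CPM (log2 difference −2.86 ± 0.35 (SE), adjusted p = 0.00028469), and Cdk6, a cyclin-dependent kinase of early blood cells, was 331, 593 and 243 CPM against 68.6, 93.7 and 131 CPM (log2 difference −1.93 ± 0.35 (SE), adjusted p = 0.0036872). Monocyte replicate 2 was the highest monocyte library for Myb, Cd34 and Cdk6, and the macrophage libraries overlapped the monocytes for each, with 276, 151 and 103 CPM of Cd34. Sox4 was 49.8, 78.4 and 18.5 CPM against 7.29, 8.25 and 8.97 CPM (log2 difference −2.23 ± 0.41 (SE), adjusted p = 0.003914) and the ETS factor gene Erg was 13.2, 23.8 and 6.81 CPM against 1.55, 2.58 and 1.07 CPM (log2 difference −2.39 ± 0.40 (SE), adjusted p = 0.0021535). The part of progenitors within the monocyte sort in these differences was not tested. In the progenitor list the number called higher was 0 with a pseudocount of 0.1, without the filter on low values, with the filter at 5 CPM, with all 9 libraries fitted or without dendritic cell replicate 1, 2 or 3 or monocyte replicate 3, and the number called lower was 5 without monocyte replicate 1 and 4 without dendritic cell replicate 1. Sox4 missed the threshold without dendritic cell replicate 1 (adjusted p = 0.057).

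Several genes of DNA replication were lower in dendritic cells. Of 36 tested cell cycle genes, 13 were called lower and 0 higher, against 4.93% and 4.8% of all genes, and the median was −0.75. All 6 with the smallest p act in replication: Mcm2, a subunit of the replicative helicase, was 135, 117 and 118 CPM in monocytes and 28.8, 37.3 and 32.8 CPM in dendritic cells (log2 difference −1.88 ± 0.25 (SE), adjusted p = 0.00059138). Mcm3 was 149, 173 and 144 CPM against 41.1, 64.8 and 53.7 CPM (log2 difference −1.55 ± 0.27 (SE), adjusted p = 0.0025018), and Uhrf1, which carries DNA methylation through replication, was 171, 151 and 163 CPM against 43.5, 62.3 and 56.8 CPM (log2 difference −1.57 ± 0.26 (SE), adjusted p = 0.0018577). The monocyte libraries lay close together in these genes, including replicate 1. Mcm5, Mcm6 and Mcm7 differed by −1.52, −1.56 and −1.35 with adjusted p of 0.0025964, 0.005129 and 0.0040593. In the cell cycle list the number called lower was 16 without monocyte replicate 1 and 8 without dendritic cell replicate 1.

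Glycolytic genes were split between 3 higher and 6 lower of 24 tested, against 4.8% and 4.93% of all genes (median −0.52). Hk3, the hexokinase of myeloid cells, was 151, 86.6 and 145 CPM in monocytes and 27.1, 38.6 and 17.8 CPM in dendritic cells (log2 difference −2.18 ± 0.33 (SE), adjusted p = 0.0011011), and Pgam1, phosphoglycerate mutase, was 190, 224 and 208 CPM against 59.5, 89.9 and 84.8 CPM (log2 difference −1.42 ± 0.27 (SE), adjusted p = 0.0041744). In the other direction, Aldoc, an aldolase, was 5.28, 12.4 and 14.9 CPM in dendritic cells against 2.19, 1.00 and 1.91 CPM (log2 difference 2.06 ± 0.38 (SE), adjusted p = 0.0036053), and Pfkfb3, which makes the activator of phosphofructokinase, was 84.5, 92.4 and 112 CPM against 42.9, 39.7 and 28.6 CPM (log2 difference 1.36 ± 0.27 (SE), adjusted p = 0.0053031). In the glycolysis list the number called higher was 4 without monocyte replicate 1, and the number called lower was 5 without monocyte replicate 1, 3 without dendritic cell replicate 1 and 2 without the filter on low values or without dendritic cell replicate 2. The glycolysis median was −0.27 without monocyte replicate 1.

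Transcription factors of the myeloid lineages came as 9 higher and 3 lower of 40 tested, against 4.8% and 4.93% of all genes. The list median was 0.08. Besides Zbtb46, Irf4, Batf3 and Cebpb, given above, Egr2 was 8.42, 13.4 and 6.51 CPM in dendritic cells and 3.63, 0.28 and 0.319 CPM in monocytes (log2 difference 2.34 ± 0.46 (SE), adjusted p = 0.0053679). Nfil3, a factor that cDC1 development needs, was lower at 5.84, 9.97 and 4.598 CPM against 31.6, 26.95 and 29.97 CPM (log2 difference −2.02 ± 0.30 (SE), adjusted p = 0.0011176), and Nfe2, known from megakaryocytes and erythroid cells, was lower at 14.8, 26.3 and 21.4 CPM against 104, 86.5 and 123 CPM (log2 difference −2.29 ± 0.28 (SE), adjusted p = 0.00032394). Relb, the NF-κB member of dendritic cell maturation, was 20.4, 34.2 and 22.5 CPM against 14.7, 3.02 and 5.53 CPM (log2 difference 1.81 ± 0.43 (SE), adjusted p = 0.014815). In the lineage transcription factor list the number called higher was 13 without monocyte replicate 1, 4 without dendritic cell replicate 1 and 1 without the filter on low values, and the number called lower was 5 without monocyte replicate 2. Egr2 missed the threshold without the filter on low values or without dendritic cell replicate 1 (adjusted p = 0.062). Relb missed the threshold without the filter on low values or without dendritic cell replicate 1 or 2 (adjusted p 0.062 to 0.096).

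Growth factor receptors gave 4 higher and 1 lower of 28 tested, against 4.8% and 4.93% of all genes, with a median of −0.03. Csf3r, the receptor of the granulocyte growth factor, was 164, 86.4 and 137 CPM in monocytes and 47.1, 49.6 and 23.4 CPM in dendritic cells (log2 difference −1.69 ± 0.34 (SE), adjusted p = 0.00611). Il1r2, the decoy receptor of interleukin 1, was 3.69, 3.27 and 6.16 CPM in dendritic cells against 0.301, 1.04 and 0.675 CPM (log2 difference 1.67 ± 0.33 (SE), adjusted p = 0.0056953). Neither gene overlapped between the groups. In the growth factor receptor list the number called higher was 5 without monocyte replicate 1, 2 without dendritic cell replicate 2 or monocyte replicate 3 and 1 without the filter on low values or without dendritic cell replicate 1 or 3, and the number called lower was 2 with all 9 libraries fitted or without monocyte replicate 1, 2 or 3.

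**Figure D5:**
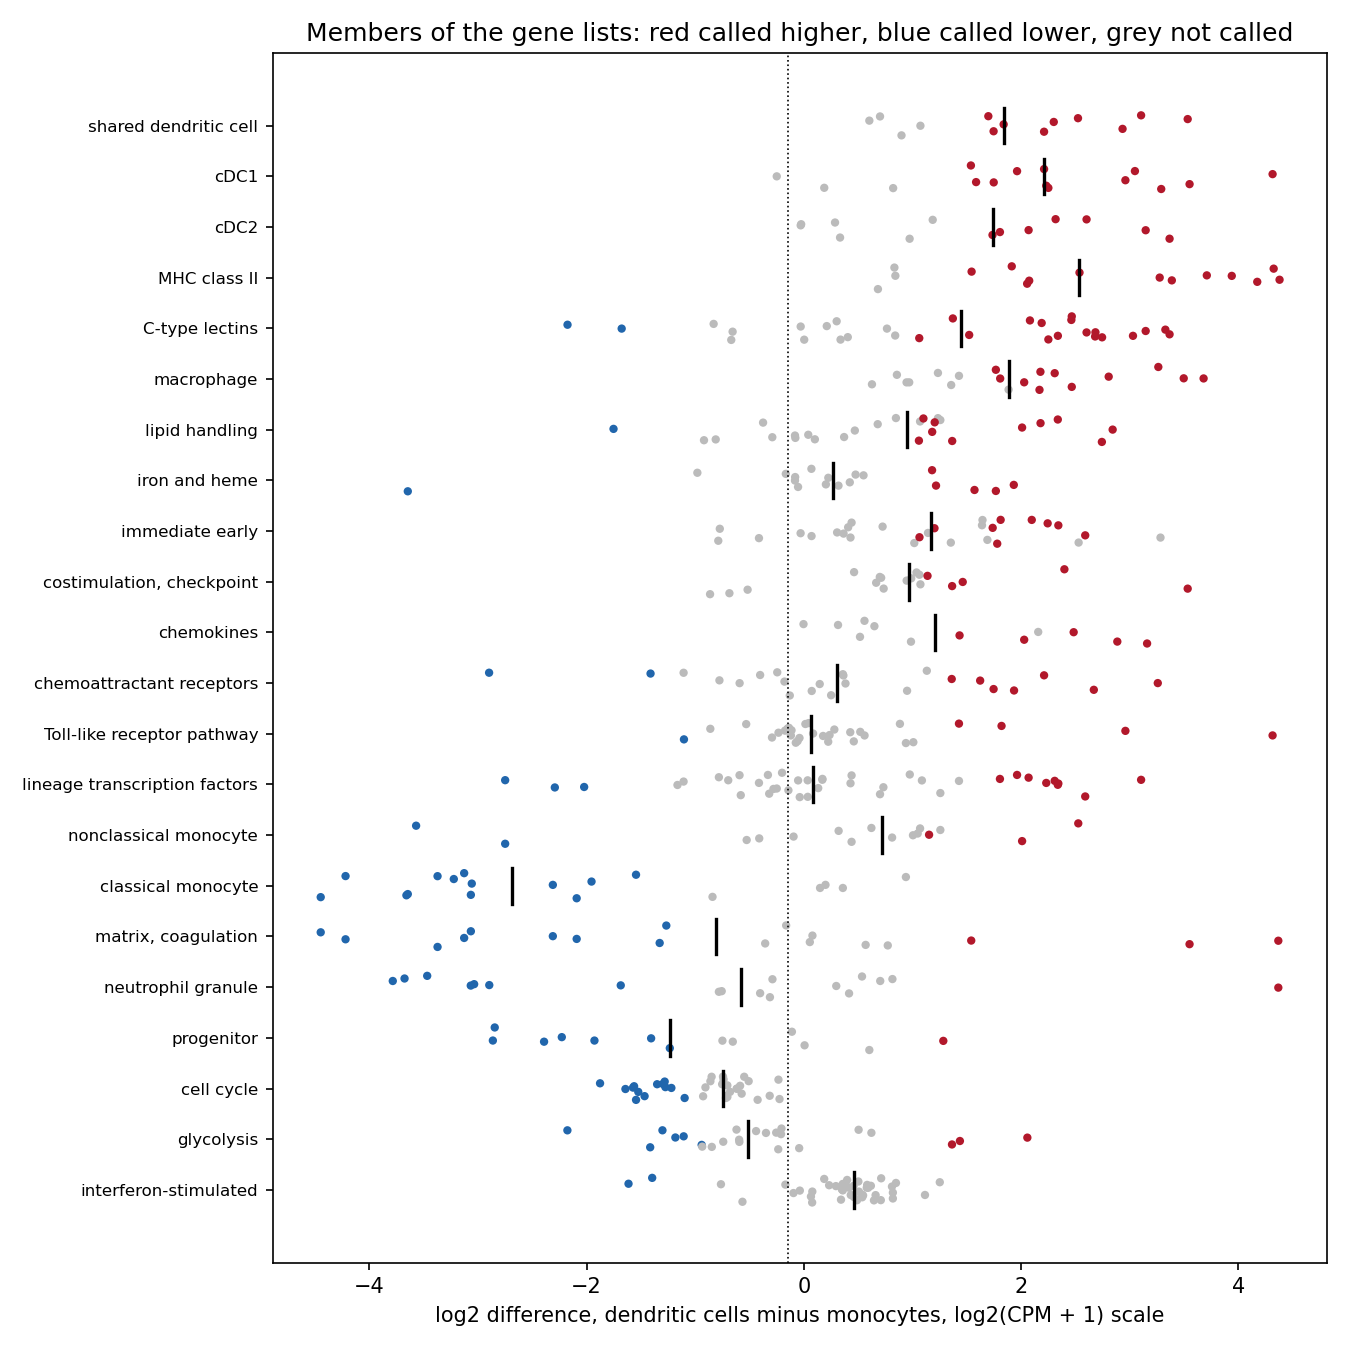
Log2 difference, dendritic cells minus monocytes on the log2(CPM + 1) scale, of each tested member of 22 gene lists; red points were called higher, blue points lower and grey points neither, the bar is the median of the list and the dotted line the median over all genes tested (−0.15). MHC class II, cDC1 and shared dendritic cell genes lie to the right, and classical monocyte, progenitor and cell cycle genes to the left. Interferon-stimulated genes have a median of 0.46 and 2 calls, both lower.

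C-type lectins, a receptor family of which only some members bind sugars, had the largest count of calls of any receptor list. Of 30 tested, 17 were higher and 2 lower, against 4.8% and 4.93% of all genes, with a median of 1.45. Klrb1b, an inhibitory receptor, was 12.3, 7.43 and 13.4 CPM in dendritic cells and 0.531, 0.0001 and 0.0376 CPM in monocytes (log2 difference 3.33 ± 0.33 (SE), adjusted p = 8.6074e-05). Clec4b1, a receptor of the dectin-2 cluster, was 30.2, 26.6 and 19.98 CPM against 3.97, 3.31 and 2.17 CPM (log2 difference 2.69 ± 0.30 (SE), adjusted p = 0.00015461). Cd209b and Cd209d, relatives of Cd209a, were 10.9, 5.38 and 4.39 and 9.51, 9.28 and 14.5 CPM in dendritic cells against 0.69, 0.22 and 0.188 and 1.89, 1.30 and 0.938 CPM in monocytes (adjusted p = 0.00098781 and 0.00059138). Klra17 was 5.27, 5.85 and 7.64 CPM against 0.283, 0.0001 and 0.0939 CPM (log2 difference 2.68 ± 0.31 (SE), adjusted p = 0.00017563), and Klrd1, the CD94 chain, was 11.8, 15.6 and 32.3 CPM against 1.04, 3.16 and 0.525 CPM (log2 difference 3.03 ± 0.43 (SE), adjusted p = 0.00079976). Members of the Cd209, Klra and Clec4 families are close in sequence, so reads may have been split between them. Macrophages did not exceed 1.71 CPM for Clec4b1 and 0.359 CPM for Cd209b and Cd209d, but held 39.01, 27.4 and 10.1 CPM of Klrb1b. In the C-type lectin list the number called higher was 18 without monocyte replicate 1, and the number called lower was 1 without the filter on low values, with the filter at 5 CPM or without dendritic cell replicate 1.

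Receptors for antibodies were called higher in 4 of 9 tested and lower in 0, against 4.8% and 4.93% of all genes (median 1.26). Fcgr2b, the inhibitory IgG receptor, was 181, 168 and 135 CPM in dendritic cells and 70.8, 56.1 and 49.9 CPM in monocytes (log2 difference 1.44 ± 0.26 (SE), adjusted p = 0.0036872). Fcgr1 (26.04, 35.5 and 17.2 against 29.2, 7.41 and 10.9 CPM) and Fcgr4 (21.4, 28.4 and 19.3 against 20.99, 6.43 and 4.33 CPM) overlapped and were not called. In the antibody receptor list the number called higher was 7 without monocyte replicate 1, 2 without dendritic cell replicate 3 and 1 without the filter on low values or without dendritic cell replicate 1. Fcgr1 and Fcgr4 passed the threshold without monocyte replicate 1 (adjusted p 0.00056 to 0.013).

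In the Toll-like receptor pathway 4 of 32 tested genes were higher and 1 lower, against 4.8% and 4.93% of all genes. The list median was 0.06. Besides Tlr3 and Tlr11, Tlr1, the partner of TLR2 in sensing lipopeptides, was 58.8, 73.1 and 52.4 CPM in dendritic cells and 18.97, 18.8 and 12.5 CPM in monocytes (log2 difference 1.82 ± 0.28 (SE), adjusted p = 0.0011496). Tlr12, which pairs with TLR11, was 8.20, 16.9 and 11.3 CPM against 8.08, 3.16 and 1.74 CPM (log2 difference 1.43 ± 0.42 (SE), adjusted p = 0.046089), and Tlr5, the flagellin receptor, was 2.08, 2.19 and 1.76 CPM against 5.45, 3.83 and 7.67 CPM (log2 difference −1.10 ± 0.31 (SE), adjusted p = 0.041349). Tlr2, named after its values were seen because it is the other partner in lipopeptide sensing, was 45.9, 79.2 and 80.6 CPM in dendritic cells and 51.3, 45.5 and 38.4 CPM in monocytes (log2 difference 0.56 ± 0.29 (SE), adjusted p = 0.30013). In the Toll-like receptor list the number called higher was 6 without monocyte replicate 1, and the number called lower was 2 with all 9 libraries fitted. Tlr12 missed the threshold with a pseudocount of 0.1, without the filter on low values, with all 9 libraries fitted or without dendritic cell replicate 1, 2 or 3 or monocyte replicate 2 or 3 (adjusted p 0.059 to 0.18). Tlr5 missed the threshold with a pseudocount of 0.1, without the filter on low values, after rescaling to a common total, after median centring or without dendritic cell replicate 1, 2 or 3 or monocyte replicate 1 or 3 (adjusted p 0.053 to 0.25).

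Of 43 tested interferon-stimulated genes, 0 were called higher in the limma test and 2 lower, against 4.8% and 4.93% of all genes. The median was 0.46, against −0.15 over all genes, and 36 of the 43 differences were positive. Cmpk2, a mitochondrial kinase of nucleotides, was 33.1, 32.4 and 35.01 CPM in monocytes and 8.12, 16.7 and 12.9 CPM in dendritic cells (log2 difference −1.40 ± 0.30 (SE), adjusted p = 0.0080596), and Gbp3, a guanylate-binding protein, was 31.7, 35.1 and 22.7 CPM against 5.93, 13.01 and 9.04 CPM (log2 difference −1.61 ± 0.32 (SE), adjusted p = 0.0053386). Ifit3 was 18.4, 17.2 and 14.5 CPM in dendritic cells and 14.2, 3.31 and 5.18 CPM in monocytes (log2 difference 1.25 ± 0.40 (SE), adjusted p = 0.069024). In the interferon list the number called higher was 3 after quantile normalization or without monocyte replicate 1 and 1 after rescaling to a common total, after median centring or with all 9 libraries fitted. The interferon median was 0.69 without monocyte replicate 1 and 0.14 without monocyte replicate 2. Ifit3 passed the threshold with all 9 libraries fitted or without monocyte replicate 1 (adjusted p 0.0013 to 0.047).

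Among chemokines, 5 of 12 tested were higher and 0 lower, against 4.8% and 4.93% of all genes (median 1.21). Cxcl16, a membrane-bound ligand of CXCR6, was 23.2, 34.4 and 22.5 CPM in dendritic cells and 7.18, 1.04 and 0.692 CPM in monocytes (log2 difference 3.16 ± 0.49 (SE), adjusted p = 0.0012231). Cxcl9, a ligand of CXCR3, was 7.35, 8.33 and 11.5 CPM against 1.45, 1.14 and 0.0564 CPM (log2 difference 2.48 ± 0.36 (SE), adjusted p = 0.00098781), and Ccl5 was 4.96, 12.2 and 22.4 CPM against 1.86, 0.381 and 0.15 CPM (log2 difference 2.89 ± 0.47 (SE), adjusted p = 0.0018669). Each of the 3 was low in monocytes, with monocyte replicate 1 the highest of them. Ccl22, a product of mature dendritic cells, was 1.63, 21.3 and 13.97 CPM against 2.19, 1.78 and 0.113 CPM and just missed the threshold (adjusted p = 0.050733), with dendritic cell replicate 1 below monocyte replicate 1. In the chemokine list the number called higher was 6 without monocyte replicate 1 and 2 with the filter at 5 CPM. Ccl22 passed the threshold with a pseudocount of 5, with all 9 libraries fitted or without dendritic cell replicate 1 or monocyte replicate 1 or 2 (adjusted p 0.0095 to 0.047).

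Receptors for chemoattractants were higher in 7 and lower in 2 of 24 tested, against 4.8% and 4.93% of all genes (median 0.31). C3ar1, the receptor of complement C3a, was 27.7, 48.1 and 43.8 CPM in dendritic cells and 8.31, 2.48 and 1.22 CPM in monocytes (log2 difference 3.26 ± 0.44 (SE), adjusted p = 0.00062401). Cxcr4, which holds cells in marrow, was lower at 57.7, 93.1 and 76.8 CPM against 165, 223 and 217 CPM (log2 difference −1.41 ± 0.28 (SE), adjusted p = 0.0053075), and S1pr3, a receptor of sphingosine 1-phosphate, was lower at 1.40, 1.503 and 3.12 CPM against 22.8, 25.4 and 15.3 CPM (log2 difference −2.90 ± 0.33 (SE), adjusted p = 0.00015461). None of these 3 genes overlapped between the groups. In the chemoattractant receptor list the number called higher was 4 with the filter at 5 CPM and 3 without the filter on low values, and the number called lower was 3 without monocyte replicate 1.

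Cytokines and growth factors gave 5 higher and 2 lower of 20 tested, against 4.8% and 4.93% of all genes (median 0.12). Igf1, insulin-like growth factor 1, was 6.64, 16.2 and 13.6 CPM in dendritic cells and 2.33, 1.06 and 1.18 CPM in monocytes (log2 difference 2.33 ± 0.36 (SE), adjusted p = 0.0012533). Il12a, the p35 chain of interleukin 12, was lower in dendritic cells, at 0.629, 0.0792 and 0.256 CPM against 3.54, 4.57 and 2.10 CPM (log2 difference −1.72 ± 0.34 (SE), adjusted p = 0.0053031). Il1b was 14.9, 15.6 and 5.08 CPM against 4.16, 0.521 and 0.788 CPM (log2 difference 2.28 ± 0.49 (SE), adjusted p = 0.0084305). In the cytokine list the number called higher was 6 without monocyte replicate 1, 2 without dendritic cell replicate 1 and 1 without the filter on low values, and the number called lower was 1 without the filter on low values, with the filter at 5 CPM or without dendritic cell replicate 1. Il1b missed the threshold without the filter on low values or without dendritic cell replicate 1 (adjusted p 0.081 to 0.11).

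Adhesion molecules gave 4 higher and 2 lower of 25 tested, counting Itgax of the gate, against 4.8% and 4.93% of all genes. Itga9, an integrin chain that binds matrix proteins, was 21.4, 32.1 and 20.6 CPM in dendritic cells and 5.22, 0.321 and 1.88 CPM in monocytes (log2 difference 3.13 ± 0.46 (SE), adjusted p = 0.00098781), and Jaml, a junctional adhesion molecule, was 37.9, 55.2 and 66.9 CPM against 16.5, 16.8 and 9.23 CPM (log2 difference 1.85 ± 0.31 (SE), adjusted p = 0.0023216). Emb, which encodes embigin, was lower at 82.7, 124 and 165 CPM against 219.9, 461 and 261 CPM (log2 difference −1.31 ± 0.34 (SE), adjusted p = 0.026634). In the adhesion list the number called higher was 5 without monocyte replicate 1, and the number called lower was 3 without monocyte replicate 1, 1 without dendritic cell replicate 2 and 0 without the filter on low values or without dendritic cell replicate 1. Emb missed the threshold without the filter on low values or without dendritic cell replicate 1 or 2 or monocyte replicate 2 (adjusted p 0.058 to 0.13).

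Lysosomal genes, a list that includes Lgmn and Ctss of the peptide loading list, had 6 of 34 tested called higher and 2 lower. The shares over all genes were 4.8% and 4.93%, and the list median was 0.43. Cst3, the protease inhibitor cystatin C, was 399, 636 and 640.1 CPM in dendritic cells and 299, 146 and 214 CPM in monocytes (log2 difference 1.37 ± 0.33 (SE), adjusted p = 0.016896). Cst7, the inhibitor cystatin F, had the opposite direction, at 4.596, 2.90 and 6.62 CPM against 17.5, 30.5 and 14.3 CPM (log2 difference −1.92 ± 0.35 (SE), adjusted p = 0.0036053). In the lysosomal list the number called higher was 3 without dendritic cell replicate 2 and 2 without the filter on low values, and the number called lower was 1 without the filter on low values or without dendritic cell replicate 1, 2 or 3 or monocyte replicate 1 or 3. The lysosomal median was 0.24 without monocyte replicate 2. Cst3 missed the threshold without the filter on low values or without dendritic cell replicate 2 or 3 (adjusted p 0.068 to 0.086).

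Lipid handling genes were higher in 10 and lower in 1 of 26 tested, against 4.8% and 4.93% of all genes (median 0.95). Hpgds, which makes prostaglandin D2, was 13.2, 15.1 and 15.4 CPM in dendritic cells and 2.39, 0.781 and 1.07 CPM in monocytes (log2 difference 2.74 ± 0.32 (SE), adjusted p = 0.00019614), and Tbxas1, thromboxane synthase, was 50.3, 42.2 and 41.1 CPM against 17.8, 13.8 and 18.5 CPM (log2 difference 1.37 ± 0.26 (SE), adjusted p = 0.0045126). Pltp, a phospholipid transfer protein, was 85.3, 76.04 and 49.9 CPM against 33.96, 3.73 and 4.53 CPM (log2 difference 2.84 ± 0.58 (SE), adjusted p = 0.0064746), and Abca1, the cholesterol exporter, was 68.2, 132 and 67.9 CPM against 46.6, 9.49 and 12.6 CPM (log2 difference 2.18 ± 0.47 (SE), adjusted p = 0.0095044). Monocyte replicate 1 was the highest monocyte library for Pltp and Abca1 by several-fold, and its value lay below every dendritic cell library. Msr1, a scavenger receptor, was lower at 6.17, 13.03 and 11.4 CPM against 26.1, 47.6 and 35.2 CPM (log2 difference −1.75 ± 0.33 (SE), adjusted p = 0.004115). In the lipid handling list the number called higher was 14 without monocyte replicate 1, 6 without dendritic cell replicate 2 or 3 or monocyte replicate 3, 3 without dendritic cell replicate 1 and 2 without the filter on low values, and the number called lower was 2 after rescaling to a common total, after median centring, after quantile normalization or without monocyte replicate 2. Pltp and Abca1 missed the threshold without the filter on low values or without dendritic cell replicate 1 (adjusted p 0.074 to 0.098).

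Immediate early genes, which respond within minutes to stimulation and to cell isolation, were higher in 9 of 28 tested and lower in 0 (median 1.17). The shares over all genes were 4.8% and 4.93%. Egr1 was 40.98, 18.8 and 11.9 CPM in dendritic cells and 6.60, 0.541 and 3.17 CPM in monocytes (log2 difference 2.59 ± 0.53 (SE), adjusted p = 0.0067069), and Fosb was 80.05, 36.6 and 26.9 CPM against 20.9, 5.83 and 6.24 CPM (log2 difference 2.10 ± 0.46 (SE), adjusted p = 0.010423). Atf3 was 66.4, 44.4 and 21.7 CPM against 20.7, 2.56 and 7.44 CPM (log2 difference 2.25 ± 0.54 (SE), adjusted p = 0.017398). Dendritic cell replicate 1 was the highest of its group for Egr1, Fosb and Atf3, and monocyte replicate 1 the highest of its own. The macrophages held 55.7, 112 and 49.2 CPM of Egr1. The part of sample handling in these differences was not tested. In the immediate early list the number called higher was 17 without monocyte replicate 1, 4 without dendritic cell replicate 2, 1 without dendritic cell replicate 1 and 0 without the filter on low values, and the number called lower was 2 without monocyte replicate 2. The immediate early median was 0.74 without monocyte replicate 2. Egr1 and Fosb missed the threshold without the filter on low values or without dendritic cell replicate 1 (adjusted p 0.077 to 0.11). Atf3 missed the threshold without the filter on low values, after rescaling to a common total or without dendritic cell replicate 1 (adjusted p 0.051 to 0.18).

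Markers of other cells that the gates could hold were mostly at low levels. Erythroid genes gave 0 calls of 9 tested and stromal genes 0 of 6. Of 11 tested genes of T, NK and innate lymphoid cells, out of 19 in the table, 5 were called higher and 1 lower. The shares over all genes were 4.8% and 4.93%. The values were small: Cd3e was 2.32, 1.90 and 4.83 CPM in dendritic cells and 0.619, 0.421 and 0.0751 CPM in monocytes. Gzma, a granzyme, was 5.34, 2.08 and 18.1 CPM against 0.0001, 0.541 and 0.0376 CPM. Both genes passed the filter through the dendritic cell libraries alone, so the split of the calls depends in part on the filter. Of the B and plasma cell list, 3 of 14 genes in the table reached the filter, and Cd22, an inhibitory B cell lectin, was called higher at 44.9, 55.9 and 77.6 CPM against 18.1, 9.17 and 4.31 CPM (log2 difference 2.55 ± 0.40 (SE), adjusted p = 0.0014487), whereas Cd79b was 9.25, 10.8 and 9.99 CPM against 10.3, 9.23 and 8.80 CPM. Vwf, the von Willebrand factor of platelets and endothelium, was 13.6, 15.4 and 25.1 CPM against 5.57, 1.86 and 1.82 CPM (log2 difference 2.29 ± 0.38 (SE), adjusted p = 0.0018577), and the megakaryocyte integrin Itga2b was 3.74, 1.42 and 1.66 CPM against 2.53, 1.10 and 1.99 CPM. Of 10 tested genes of basophils, mast cells and eosinophils, 0 were called higher and 1 lower, and 7 of the 10 differences were positive. The lower gene was Hdc, the histamine-making enzyme, at 3.70, 2.93 and 2.04 CPM against 11.4, 11.1 and 9.40 CPM (log2 difference −1.60 ± 0.30 (SE), adjusted p = 0.0038099). The part of contaminating cells in the other lists was not tested. In the erythroid list the number called higher was 2 without monocyte replicate 3. In the stromal list the number called higher was 1 without the intensity trend. In the basophil, mast cell and eosinophil list it was 2 without monocyte replicate 1 and 1 without the intensity trend. In the T, NK and innate lymphoid list the number called higher was 6 without monocyte replicate 1, 3 without the filter on low values or without monocyte replicate 3, 2 without dendritic cell replicate 1 or 3 and 1 with the filter at 5 CPM. Cd3e missed the threshold without dendritic cell replicate 1 or 3 or monocyte replicate 3 (adjusted p 0.053 to 0.069). Gzma missed the threshold without the filter on low values or without dendritic cell replicate 1 (adjusted p 0.062 to 0.063).

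Set beside the macrophage libraries of the same table, the genes that were higher in dendritic cells than in monocytes took varied positions. Of these 551 genes, every dendritic cell library was above every macrophage library in 301, the groups overlapped in 205, and dendritic cells were below all macrophages in 45. Among the 566 lower genes, dendritic cells were also below all macrophage libraries in 358, overlapped them in 179 and were above them in 29. These counts are a description, with no test. The same positions were not counted over all genes tested, so the counts are not read as sharing between the sorts. Mmp9, Ctsk, Cd209a and C1qb were in the first set, Tlr3, Anpep and Clec9a overlapped, and Xcr1 was among the 45.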

How the data were processed

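The values are CPM per gene, which the authors deposited in a table named for FPKM. The unit was read from the values: in the 6 columns 89.9% to 91.8% of values up to 50 steps lay within 0.05 of a whole multiple of 1 step shared by all genes, against 6.28% to 11.7% with a step 7% longer. Over all values 27.8% to 81.9% came out whole, too few for a count test. The submitters' processing notes name mm10, STAR 2.5.3a and Partek; the annotation and the strand setting are not stated in the labels, so overlapping and antisense genes cannot be told apart. Per the labels' protocols, RNA was isolated on columns and ribosomal RNA was removed before library construction.

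Dendritic cell columns were assigned by name to their group, and their identity was checked against the other table. Genes with at least 1 CPM in at least 3 of the 6 libraries were tested in R 4.3.3 with the limma package, version 3.58.1 (functions lmFit and eBayes, trend on), after adding a pseudocount of 1 and taking log2; p-values are two-sided and were adjusted by the method of Benjamini and Hochberg over all 11489 genes, with 0.05 as the threshold. A gene can pass the filter through 1 group alone, as Tlr3 did through dendritic cells and Bmx through monocytes. The fit was tested on simulated data. Genes are named by a rule: the 12 largest differences each way among called genes without overlap whose higher group averaged 5 CPM or more, up to 6 members of each of 39 gene lists in order of p, the cell type markers and the sorting markers. Exceptions are marked. A few genes that the rule names are not reported here. The lists, the rule and the comparison were chosen with earlier results of these data known. Lists are described by counts and medians, with no set test. Alternatives changed the pseudocount, the filter, the scaling, the libraries fitted, the intensity trend and the replicate block, and left out each library in turn. The 15 mitochondrial genes searched for are not in the table, and the 3 nuclear RNAs tested gave 0 calls: Malat1 was 4238, 3159 and 2952 CPM in dendritic cells and 2485, 2747 and 2485 CPM in monocytes.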

Additional observations from a re-analysis of the deposited data

How the results depend on the processing

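Against 1117 genes called (551 higher and 566 lower in dendritic cells), 635 passed without the filter on low values, 299 higher and 336 lower, when 16424 genes were tested. Leaving out each library in turn gave 631 to 1295 calls, 353 to 733 higher and 272 to 747 lower. The lowest totals were those without dendritic cell replicate 1 (631) and replicate 2 (736), and the highest was that without monocyte replicate 1, of whose 1295 calls 1007 were also called with all libraries. Members of the gene lists called numbered 209, and 119 without the filter; leaving out a library gave 142 to 258. The share of calls that were higher was 49.3%, and 54.5% after rescaling to a common total, 56.8% after quantile normalization and 60.7% after median centring. Deviations from the group means of same-numbered dendritic cell and monocyte libraries correlated at 0.237, −0.266 and −0.413. Each dendritic cell library correlated better with a monocyte library of another number (0.348, 0.282 and 0.588). With 3 libraries a group, these values cannot decide whether same-numbered libraries share a mouse or a batch. The replicate block gave 1174 genes called, 613 higher and 561 lower, 1023 of them also called without it. Changes of single lists and genes under the block are not given here. Of 171 named genes called, 106 kept the call under each of the 16 alternatives in which they were tested, and 65 lost it under at least 1. A reversal was a change of sign with an adjusted p under 0.05 in the main fit or the alternative. By this rule 0 of the 234 named genes tested reversed. Some genes not called did change sign, such as Nr4a1 (−0.431 to 1.331) and Csf1r (−0.394 to 0.3). The precision is limited by 3 libraries a group, and at 1 CPM by 37.9 to 71.6 reads if a step is 1 read. The cause of the changes was not tested.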

Other observations

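The dendritic cell table also holds a vehicle library, number 4, that has no column in the table of baseline myeloid cells. The 2 tables differ in part of their values for libraries 1 to 3, where no gene was higher in the dendritic cell table, so the values set side by side here are a description with no test. Of the 536 genes called higher in dendritic cells without overlap, vehicle library 4 was above all 3 monocyte libraries in 469 (87.5%), against 17.6% of all genes tested. Libraries 1, 2 and 3, read from the same table, were above them in 480, 503 and 507. Of the 564 genes called lower without overlap, library 4 was below all monocytes in 542 (96.1%), against 46.3% of all genes tested, which partly follows from the lower values of that table.

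In vehicle library 4, H2-Aa was 3225 CPM, H2-Oa 37.3 CPM, Mmp9 229.7 CPM, Ctsk 120.3 CPM, Cd209a 323 CPM and C1qb 112 CPM, each above every monocyte library. Mpo was 331 CPM and Mmp8 2.27 CPM, each below every monocyte library. Xcr1 was 7.76 CPM, within the range of the other dendritic cell libraries.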
